A study of Mus musculus with 3 samples.

Results

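The AP-1 and heat shock immediate-early genes described here were Fos, Fosb, Jun, Junb, Dusp1, Atf3, Egr1, Hspa1a and Hspa1b, 9 of the 32285 genes counted in single cells of cultured mouse thymus. They were taken by symbol, with their levels in these cells already known: Fosb and Dusp1 had led an immune cluster in an earlier clustering. The levels by population are therefore a description, without a test. Immediate-early genes are transcribed within minutes of a stimulus, without new protein synthesis. Their products include the FOS and JUN proteins, which pair to form the transcription factor AP-1, and enzymes and repressors that shut the response down. Hspa1a and Hspa1b encode inducible HSP70, a chaperone made when proteins unfold. Both kinds of gene are also known to respond to the enzymatic dissociation of a tissue, whose part in the levels below was not tested.

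The study set reaggregates made with organoid-grown epithelium (ORFTOC) against intact fetal thymic lobes in culture (FTOC). All material was wild type, from C57BL/6J mice except for the fibroblasts, whose strain is not given in the sources used here. An ORFTOC combined thymic epithelial cells (TECs) that had been grown as organoids in medium with FGF7, younger fetal thymus cells from which EpCAM-positive cells had been depleted, and mouse embryonic fibroblasts. The organoids came from thymi of a later fetal stage than the lobes and the depleted cells, so the epithelium of the pools differed in source age as well as in culture. The study kept both kinds of culture in the same medium with serum and FGF7, with thiazovivin added at the start. On culture day 13 both kinds of culture were dissociated with TrypLE, and per the labels with DNase. In each pool 2 cultures were mixed before hashtag labelling (HTO_2 for ORFTOC, HTO_1 for FTOC), and both pools were run on 1 lane. Each pool was thus 1 sample. The mesenchymal cells of the ORFTOC pool can include the added fibroblasts, which cannot be told apart here from thymic mesenchyme. No test between pools was possible, and every interval below is a 95% interval that covers counting error only.

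The ORFTOC pool held 4251 cells (median 7992 unique molecular identifiers, UMIs, per cell) and the FTOC pool 4141 (median 4941). They fell into 2179 epithelial, 5951 immune and 262 mesenchymal cells. Levels are given as CPM, the UMIs of a gene for every 1000000 UMIs counted. Summed epithelial markers stood at 9010 CPM in epithelial cells, immune markers at 5741 in immune cells and mesenchymal markers at 24339 in mesenchymal cells, against 19.8 to 186 for markers of another compartment. The cells formed 28 clusters, of which 24 held at least 50 cells. The clusters were formed without the 9 genes and their companions. A name ending in "-like" rests on marker genes alone. Cluster E7, an epithelial cluster led by T-cell genes, held genes of another compartment. Cluster I15, grouped with the immune cells, was led by the parathyroid markers Pth and Chga rather than immune genes, and stayed unnamed. Free RNA was read from 474940 barcodes with at most 100 UMIs.

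RefSeq promoter windows on GRCm38.p6 (mm10, the build named for the files) were found for 8 of the 9 genes, all but Egr1. Each window runs from 250 bases before the start site to 50 after it. Those of Fos, Dusp1 and Atf3 are shown, without the transcribed part, because they held a response element, and those of the heat shock pair because these 2 genes are hard to tell apart. In the first set capitals mark the core of the cyclic AMP response element (CRE), TGACGT on either strand. Fos (chr12:85473640-85473889, + strand) held 1 such core, Dusp1 (chr17:26508473-26508722, - strand) held 2, 1 of them within the full palindrome TGACGTCA, and Atf3 (chr1:191183334-191183583, - strand) held 1 on the other strand.
Fos: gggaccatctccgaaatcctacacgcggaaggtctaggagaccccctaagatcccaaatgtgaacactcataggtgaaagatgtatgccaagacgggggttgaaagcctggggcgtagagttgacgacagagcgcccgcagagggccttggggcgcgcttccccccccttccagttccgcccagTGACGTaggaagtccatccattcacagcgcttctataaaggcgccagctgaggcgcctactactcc
Dusp1: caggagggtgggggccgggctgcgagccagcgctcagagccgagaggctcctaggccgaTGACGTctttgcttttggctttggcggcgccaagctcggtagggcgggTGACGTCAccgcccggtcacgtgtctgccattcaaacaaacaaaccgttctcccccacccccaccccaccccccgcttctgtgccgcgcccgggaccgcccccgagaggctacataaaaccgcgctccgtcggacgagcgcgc
Atf3: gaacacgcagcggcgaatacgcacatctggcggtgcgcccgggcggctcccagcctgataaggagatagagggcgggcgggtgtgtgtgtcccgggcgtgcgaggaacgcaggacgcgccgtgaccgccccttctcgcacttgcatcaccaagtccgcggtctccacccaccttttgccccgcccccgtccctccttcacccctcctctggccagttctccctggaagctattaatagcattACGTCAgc
Of 32817 windows of the same length, 7.51% held the core and 1.79% the full element. No window of the 8 genes held the AP-1 site TGANTCA, which was in 7.81% of all windows, or a CArG box, in 1.63%. Only exact matches within these windows were searched, so near matches and sites further upstream would be missed. In the pair below, from Hspa1a (chr17:34972157-34972406, - strand) and Hspa1b (chr17:34959239-34959488, - strand), capitals mark the bases that differ.
Hspa1a: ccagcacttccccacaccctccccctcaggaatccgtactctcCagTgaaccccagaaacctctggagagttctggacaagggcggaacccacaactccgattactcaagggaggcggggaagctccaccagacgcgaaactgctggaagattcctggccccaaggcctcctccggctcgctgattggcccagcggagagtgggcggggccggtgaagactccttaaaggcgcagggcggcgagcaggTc
Hspa1b: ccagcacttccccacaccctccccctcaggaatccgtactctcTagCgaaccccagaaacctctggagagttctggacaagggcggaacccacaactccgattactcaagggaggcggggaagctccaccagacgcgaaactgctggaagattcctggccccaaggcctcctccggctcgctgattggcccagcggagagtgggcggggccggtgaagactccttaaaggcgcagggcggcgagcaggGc
The 2 windows were identical at 296 of 300 bases (98.7%). Counted from 1 at the 5′ end of the window, with the Hspa1a base first, they differed as C44T, T47C, T249G and C276T, of which the last lies among the 50 transcribed bases and is not shown. Both held the inverted heat shock unit GAANNTTC, which was also in the Jun window and in 7.86% of all windows. With a 5′ kit and first transcribed bases this alike, the division of reads between Hspa1a and Hspa1b is uncertain.

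The AP-1 subunit genes were high in a few immune clusters, in mesenchyme and in most epithelium, and low in most thymocytes. Aire mTEC-like cells were the epithelial exception for Fos, Fosb and Jun. They also stood lowest for Junb among the epithelial clusters of at least 50 cells, at 846 CPM. Fos, whose product forms AP-1 with a JUN protein, reached 6263 CPM (6144 to 6385) in the ILC2-like cluster, 287 cells led by Il13 and Areg. It followed at 2725 (2681 to 2770) in airway-like epithelium, 2313 in the unnamed epithelial cluster E3, 2223 in mesenchymal cells, 1606 (1560 to 1654) in the ILC3-like cluster and 1074 in cTEC-like cells. In thymocytes carrying both CD4 and CD8 (DP-like, 2129 cells) it was at 47.1 (40.4 to 54.5). The level was lowest at 8.99 in the cycling thymocyte-like cluster I5, with an interval that overlapped that of I11 (15.5). Fosb kept much of this order, with 842 in the ILC2-like cluster, 465 in airway-like cells, 393 in mesenchymal cells and 6.84 in DP-like cells. The ILC2-like cluster also led for Fosb without overlap with the next interval.

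Jun, which pairs with FOS proteins, had another leader. Airway-like epithelium held 2521 CPM (2479 to 2564) against 1383 (1327 to 1441) in the ILC2-like cluster. The ILC3-like cluster, with 174, stood below every epithelial cluster but the Aire mTEC-like one, at 92.1. Junb, a weaker activator than Jun, was the subunit gene that spread furthest. It reached 7326 (7197 to 7458) in the ILC2-like and 2815 (2753 to 2877) in the ILC3-like cluster, then 2021 to 846 over the epithelial clusters, and it was still at 1048 in gamma-delta T-like and 701 in NK or cytotoxic-like cells. The level of Junb in DP-like cells was 125 (114 to 136).

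Among the genes that feed back on the response or run beside it, Dusp1, a phosphatase that inactivates MAP kinases, was at 2649 CPM (2572 to 2729) in the ILC2-like cluster. Mesenchymal cells came next at 435, with macrophage-like (380), gamma-delta T-like (353) and ILC3-like cells (315) after them, and these last 3 overlapped in their intervals with a neighbour in the order. Among epithelial clusters cTEC-like (59.9) and Aire mTEC-like cells (71.0) stood lowest, with overlapping intervals. Atf3, a stress-induced repressor with a leucine zipper like that of FOS and JUN, peaked elsewhere: macrophage-like cells held 308 and airway-like cells 291, with overlapping intervals. In the ILC2-like and ILC3-like clusters it was at 37.3 (28.6 to 47.8) and 19.0 (14.3 to 24.8). Egr1, a zinc-finger factor induced through the ERK pathway, was at 1837 (1773 to 1904) in the ILC2-like cluster and at 1230 to 309 over the epithelial clusters. It was the only one of the 9 genes that was higher in selected-like thymocytes, with 218, than in every other thymocyte cluster of the DP-like, cycling, mature SP-like and selected-like classes by more than counting error.

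The heat shock pair was an epithelial and mesenchymal signal. Hspa1a ranged from 6.25 to 22.5 CPM over the epithelial clusters and was at 31.8 in mesenchymal cells. The corresponding values for Hspa1b were 19.9 to 58.0 and 38.1. Immune cells together held 5.33% of all Hspa1a and 3.54% of all Hspa1b UMIs. Cluster I15, led by parathyroid markers and not by immune genes, supplied 15 of these 36 and 36 of these 58 UMIs. In the ILC2-like cluster, where Fos, Fosb and Junb were highest, Hspa1a had 0 UMIs, with an interval up to 2.22 CPM, and Hspa1b had 1. The cluster richest in Fos thus had almost no UMIs of the heat shock pair.

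**Figure D1:**
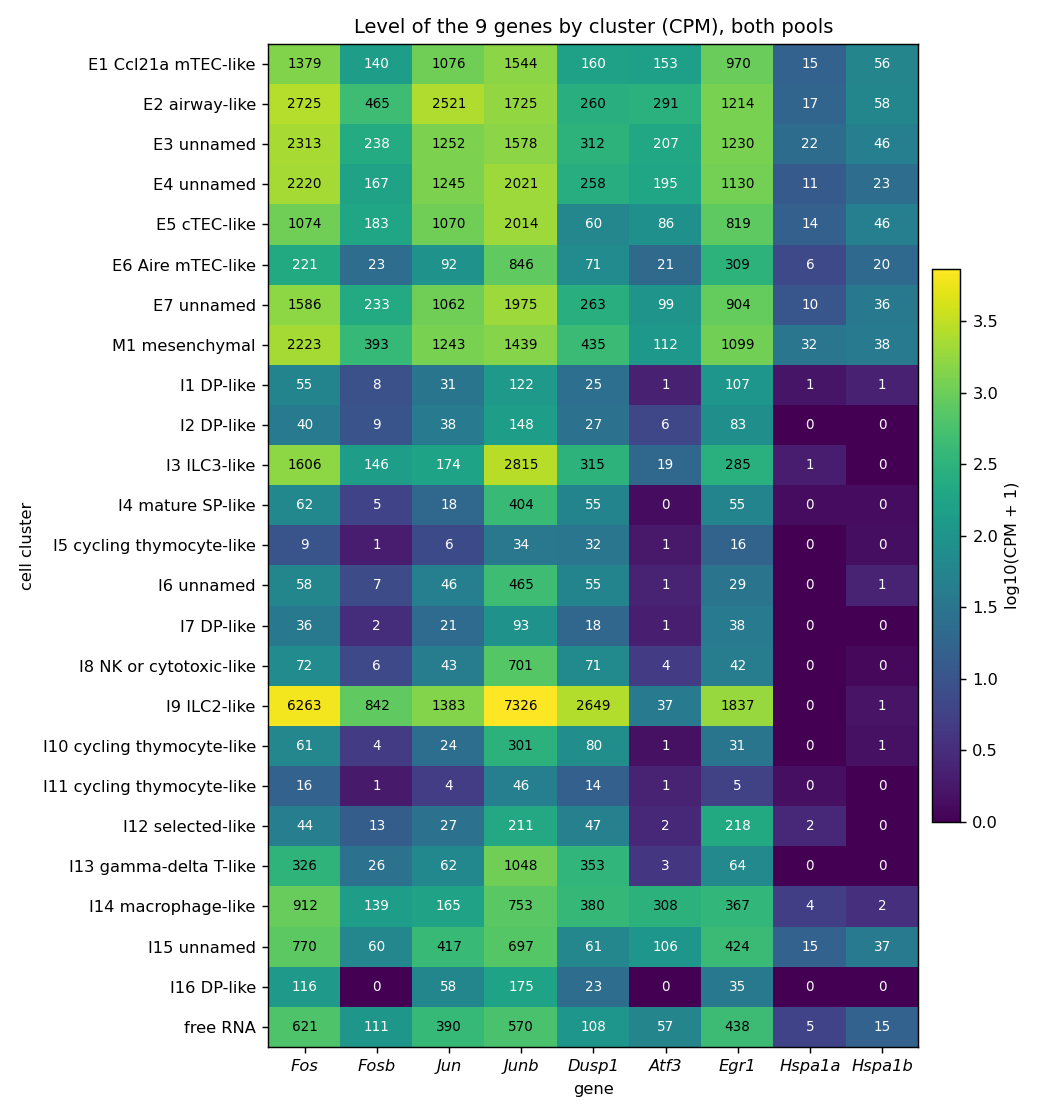
Level of each of the 9 genes (columns) in the 24 clusters of at least 50 cells and in free RNA (rows), in CPM over both pools, with the color on a log10 scale. The ILC2-like cluster stands out for Fos (6263), Junb (7326) and Dusp1 (2649), the epithelial and mesenchymal clusters are filled for all 9 genes, and the DP-like clusters are low throughout.

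For 8 of the 9 genes the highest cluster lay at least 4-fold above the median cluster with at least 50 CPM, from 7.30-fold for Egr1 to 62.5-fold for Hspa1b. The Hspa1b median was 0.928 CPM, below its free RNA level of 15.2, so that fold rests on very few UMIs. Hspa1a did not reach the minimum. Of 8294 genes that reached it, 51.1% passed the same rule, so this spread over clusters was common, and since the genes were chosen from these cells nothing more is read from the count. The ILC2-like cluster held 3.42% of the cells but 12.4% of the Fos, 13.5% of the Junb and 26.7% of the Dusp1 UMIs. The epithelial cells were 26% of the cells and held 61.1% of the Fos, 77.4% of the Jun and 83.6% of the Hspa1b UMIs. DP-like cells were 25.4% of the cells and held 0.213% of the Fos UMIs.

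Free RNA carried all 9 genes, at 621 CPM for Fos (599 to 644), 570 for Junb, 438 for Egr1, 390 for Jun and 4.91 for Hspa1a. Fos lay above this level in 11 clusters and below it in 13. From markers of other compartments, 5.70% of the UMIs of DP-like cells were put down to free RNA. That amount of the free RNA profile would hold 75.2% of the Fos, 71.1% of the Jun, 30.7% of the Egr1 and 26% of the Junb UMIs counted in these cells. For the ILC2-like cluster the same reckoning gave 0.522% of the Fos and 0.409% of the Junb UMIs, for the ILC3-like cluster 1.01% and 0.530%, and for airway-like cells 0.490% and 0.709%. In selected-like thymocytes it gave 6.94% of the Egr1 but 49.2% of the Fos UMIs. Free RNA in that amount would thus carry most of the Fos UMIs of DP-like cells and at most 1.01% of those of the ILC2-like, ILC3-like and airway-like populations.

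The genes also stood in proportions unlike those of free RNA. For each 100 Fos UMIs the free RNA held 62.8 Jun UMIs (59.2 to 66.6). Airway-like cells held 92.5 (90.4 to 94.7) and cTEC-like cells 99.7, whereas the ILC2-like cluster held 22.1 (21.1 to 23.1), macrophage-like cells 18.1 and the ILC3-like cluster 10.9 (9.87 to 11.9). Epithelium was mixed, since Ccl21a mTEC-like cells (78.0) also lay above free RNA but the unnamed clusters E3 (54.1) and E4 (56.1), Aire mTEC-like cells (41.6) and mesenchymal cells (55.9) lay below it. Atf3 UMIs for each 100 of Fos numbered 9.17 in free RNA, 0.596 (0.456 to 0.764) in the ILC2-like cluster and 33.8 (31.4 to 36.3) in macrophage-like cells. Selected-like thymocytes held 120 Egr1 against 24 Fos UMIs, or 500 for each 100 (321 to 811), with 70.5 in free RNA.

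**Figure D2:**
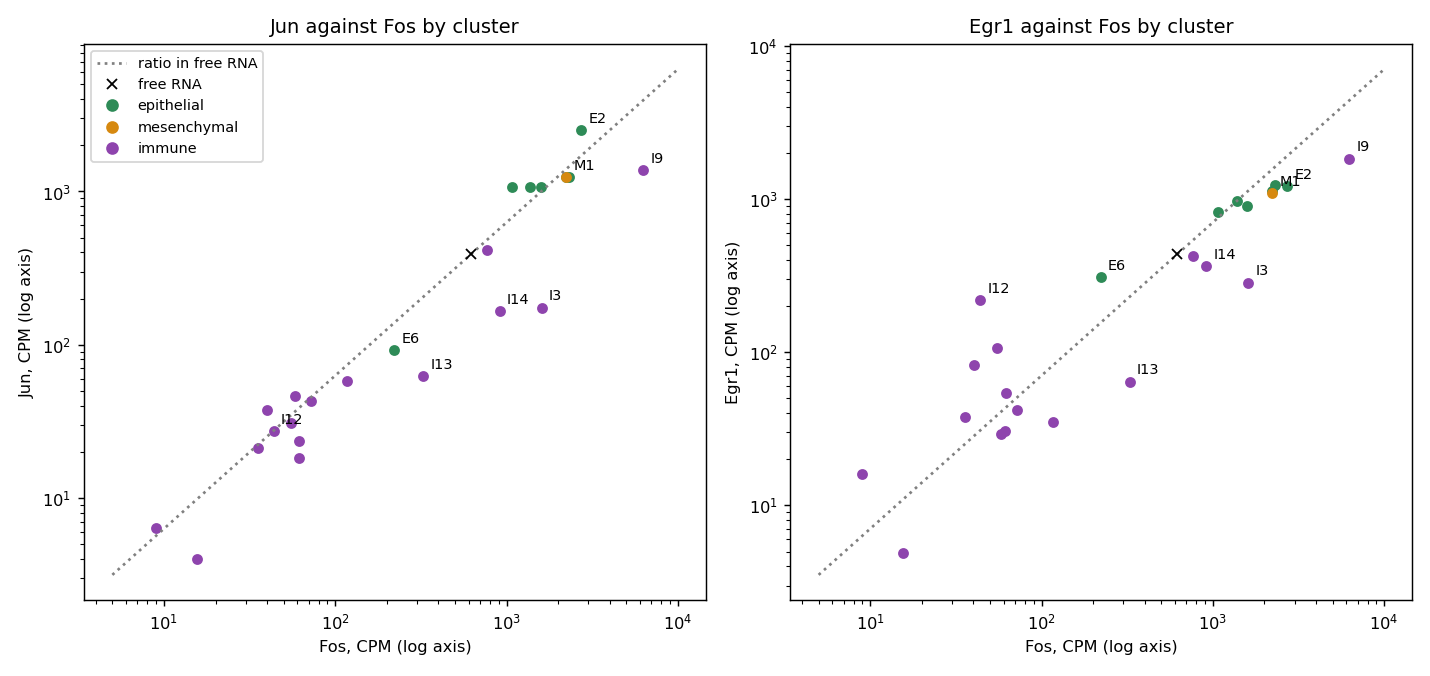
Jun (left) and Egr1 (right) against Fos by cluster, in CPM on log axes; the dotted line is the ratio in free RNA and the cross its level. The ILC2-like (I9), ILC3-like (I3), macrophage-like (I14) and gamma-delta T-like (I13) clusters lie below the line for Jun, and the selected-like cluster (I12, 500 Egr1 for each 100 Fos UMIs) lies above it for Egr1.

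Whether a high level came from many cells or a few was read after each cell had been thinned to 1000 UMIs, since depth differed between populations, and 117 immune cells with fewer UMIs were left out. Fos was then found in 87.2% (83.8 to 90.2) of airway-like cells, 86.7% (82.2 to 90.4) of the ILC2-like cluster, 77.1% of mesenchymal cells and 60.4% of the ILC3-like cluster. The share was 5.0% in DP-like cells and 2.23% in cycling thymocyte-like cells. Without thinning these shares were 99.3%, 95.8%, 99.6%, 86.1%, 7.33% and 14.4%, at median depths from 18815 UMIs in mesenchymal to 1617 in DP-like cells. Dusp1 was found in 72.4% of thinned cells of the ILC2-like cluster and in 24.1% of the ILC3-like cluster. Hspa1b was found in 4.59% of thinned epithelial cells and 35.1% of the same cells before thinning. The tenth of ILC2-like cells with the most Fos UMIs held 26.6% of them, against 71.2% in Aire mTEC-like cells.

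Several of the genes were found in the same cells. Whether this was more often than their separate levels would give was not tested. At least 4 of the 7 genes other than the heat shock pair had a UMI in 69.2% (63.5 to 74.5) of thinned ILC2-like cells, 61.0% (56.3 to 65.5) of airway-like cells, 48.5% of mesenchymal cells and 34.4% of Ccl21a mTEC-like cells. In the ILC3-like cluster, with its high Fos and Junb but low Jun and Egr1, the share was 13.0% (10.4 to 16). It was 0 of 2022 DP-like cells (interval up to 0.182%). Between the pools the share was 68.9% in 264 ORFTOC and 72.7% in 22 FTOC cells of the ILC2-like cluster, with overlapping intervals.

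**Figure D3:**
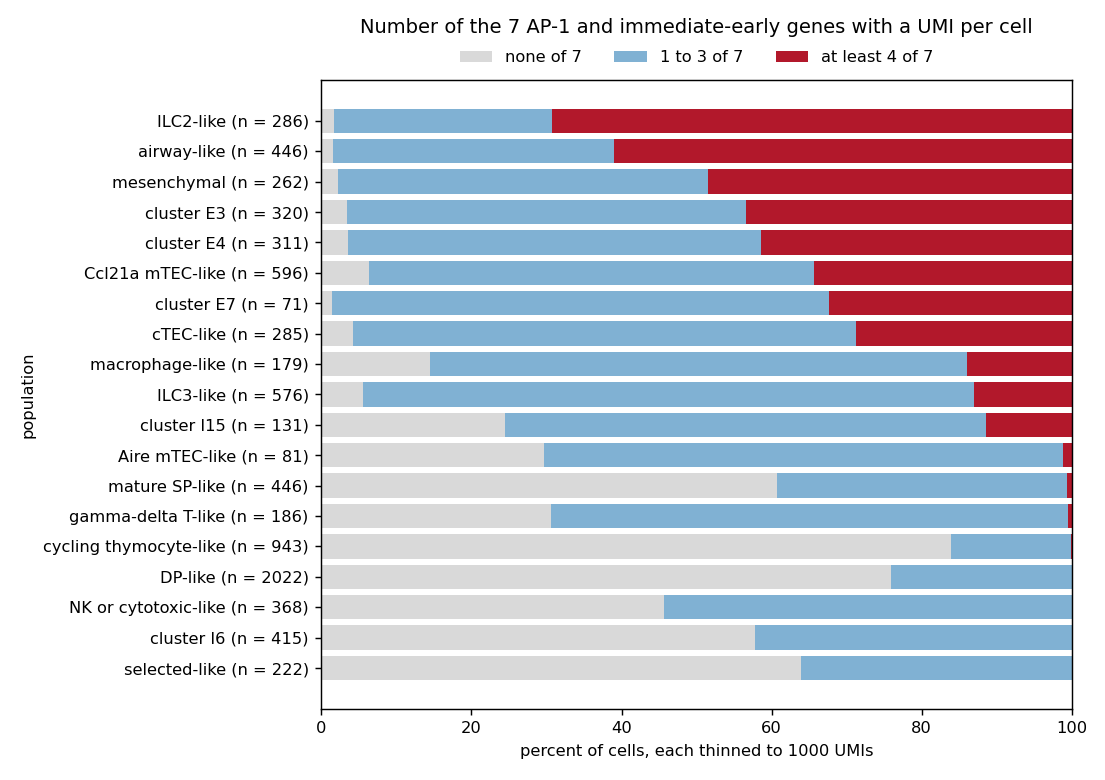
Percent of cells with a UMI of none, 1 to 3 or at least 4 of the 7 genes Fos, Fosb, Jun, Junb, Dusp1, Atf3 and Egr1, in populations of at least 50 cells, each cell thinned to 1000 UMIs, both pools. The share with at least 4 runs from 69.2% in ILC2-like cells to 0 in populations such as DP-like cells.

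The comparison of the pools asked whether cells from reaggregates carried these genes at another level than cells from intact lobes. In epithelial cells 0 of the 8 genes that reached 20 CPM in either pool differed by 2-fold, where 4.66% of 7059 genes did. Fos stood at 1784 CPM in the ORFTOC and 1662 in the FTOC pool, which gave a log2 ratio of 0.10 (0.08 to 0.13). Jun stood at 1449 and 1146 (log2 ratio 0.34, 0.31 to 0.37), Fosb at 251 and 179 (0.49) and Hspa1b at 51.6 and 39.0 (0.40). Dusp1 went the other way, with 167 and 226 (-0.44, -0.51 to -0.36). The makeup of the epithelium also differed between the pools. Cluster E3 (Dusp1 at 312) held 51 ORFTOC and 269 FTOC cells, and cTEC-like cells (Dusp1 at 59.9) 248 and 37. In airway-like, Ccl21a mTEC-like, cTEC-like and Aire mTEC-like cells taken alone the Dusp1 interval held 0. Over all settings run the summed ratio ranged from -0.48 to -0.11 for Dusp1 and from 0.15 to 0.36 for Jun. The part of makeup was not tested. In mesenchymal cells 0 of 9 genes passed 2-fold, where 4.58% of 6705 genes did. Counts of 0 among so few genes say little in either compartment. The lowest ratios there were those of the heat shock pair: Hspa1a had 27.8 CPM in ORFTOC and 50.8 in FTOC (-0.87, -1.36 to -0.36) and Hspa1b 33.3 and 61.2 (-0.88, -1.32 to -0.42), from 54 FTOC cells.

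Immune cells summed as a whole differed. Of 7 genes with enough UMIs, 6 were at least 2-fold higher in ORFTOC, where 2.98% of 6448 genes were. The genes were chosen with Fosb and Dusp1 known to lead an immune cluster. Here both were among the leading genes of the ILC2-like cluster, which was commoner in ORFTOC. The count is therefore not independent of that choice and is only a description. Fos stood at 816 CPM in the ORFTOC and 214 in the FTOC pool (log2 ratio 1.93, 1.88 to 1.98), Fosb at 97.5 and 28.6 (1.77), Dusp1 at 318 and 111 (1.51), Egr1 at 242 and 102 (1.24), Jun at 162 and 72.8 (1.15) and Junb at 1174 and 529 (1.15). Atf3, at 44.8 and 23.7, had a log2 ratio of 0.92 (0.74 to 1.09). Hspa1a and Hspa1b, with 14 and 17 UMIs in ORFTOC against 22 and 41 in FTOC, were too low to be counted. Immune cells of ORFTOC were also the deeper ones, with a median of 5315 UMIs per cell against 2493, and the part of depth was not tested.

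**Figure D4:**
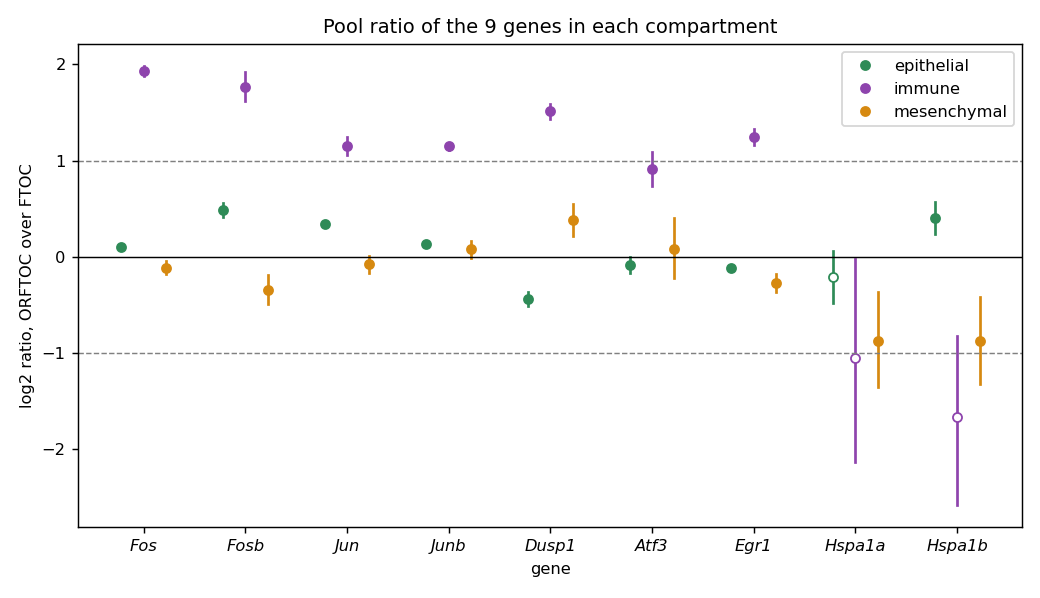
Log2 ratio of ORFTOC over FTOC for each gene in epithelial, immune and mesenchymal cells, with 95% intervals for counting error; open points have under 20 CPM in both pools and dashed lines mark 2-fold. Fos (1.93) and 5 other genes pass the upper line in immune cells, and no filled point does in the other 2 compartments.

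The makeup of the immune cells moved with this difference. The ILC2-like cluster made up 9.40% of ORFTOC and 0.702% of FTOC immune cells, and it held 55.7% and 27.9% of the immune Fos UMIs of each pool. The ILC3-like cluster made up 16.1% and 3.93% of the cells, and macrophage-like cells 4.72% and 1.47%. DP-like cells went from 21.6% in ORFTOC to 48.6% in FTOC. With the immune clusters given the same weight in both pools, Fos stood at 588 in ORFTOC and 471 in FTOC (log2 ratio 0.32), Junb at 923 and 800 (0.21), Dusp1 at 232 and 209 (0.15), Egr1 at 187 and 194 (-0.05) and Jun at 122 and 123 (-0.01), and 0 genes passed 2-fold. Without the ILC2-like and ILC3-like clusters 1 gene passed, Atf3 (1.08), and without the macrophage-like cluster as well 0 did, with Fos at 72.8 and 95.8 (-0.40). The share of all genes passing under these settings was not computed, so the counts are not read as a result about these genes. The FTOC side of the weighted levels rests in part on 22 cells of the ILC2-like cluster.

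Within clusters the genes passed 2-fold between the pools about as often as all genes did. The count is thus not read as a result about these genes. Over 23 clusters with at least 20 cells of each pool, 8 of 145 pairs of gene and cluster with enough UMIs passed 2-fold, 3 higher and 5 lower in ORFTOC. Of all 149924 such pairs of genes and clusters 6.84% did, 3.26% higher and 3.58% lower. In the ILC2-like cluster Fos stood at 6291 in ORFTOC and 6000 in FTOC (log2 ratio 0.07, -0.03 to 0.17), Junb at 7439 and 6248 (0.25, 0.16 to 0.35) and Egr1 at 1788 and 2312 (-0.37, -0.53 to -0.21). The FTOC values of this cluster came from 22 cells. In airway-like cells Fos stood at 2824 and 2386 (0.24, 0.18 to 0.30) and Jun at 2527 and 2501 (0.02, -0.04 to 0.07). Macrophage-like cells had more Fos in ORFTOC, with 984 and 638 (0.63, 0.48 to 0.77), but less Jun, with 150 and 221 (-0.56, -0.84 to -0.28), and less Atf3, with 293 and 367 (-0.33, -0.53 to -0.12). Over the 23 clusters the interval of the log2 ratio of Fos lay above 0 in 7, below 0 in 3 and held 0 in 13, and that of Egr1 in 3, 7 and 13.

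The pools stood furthest apart for Fos in the ILC3-like cluster. Fos was at 1827 in its 453 ORFTOC cells and 921 in its 123 FTOC cells (log2 ratio 0.99, 0.87 to 1.11). Egr1 was at 330 and 145 (1.19, 0.88 to 1.5). Jun (194 and 112, 0.80), Fosb (0.71), Dusp1 (0.67) and Junb (3019 and 2178, 0.47) were on the same side with intervals clear of 0. Atf3 was on the other side, at 13.5 and 36.3 (-1.43, -2.25 to -0.59) from 29 and 25 UMIs. Egr1 and Atf3 thus passed 2-fold, 2 of the 7 genes with enough UMIs, where 3.46% of 6793 genes did in this cluster. Jun was lower in ORFTOC in the unnamed cluster I6, with 29 and 140 UMIs (log2 ratio -1.56, -2.19 to -0.98). The other 5 pairs past 2-fold were Jun (2 and 13) and Dusp1 (16 and 10) in selected-like cells, Atf3 in the ILC2-like cluster (60 and 2), and Hspa1a (2 and 13) and Hspa1b (4 and 32) in cluster I15. Of the 8 pairs, 3 had an interval that held 0. In cTEC-like cells Fos was at 1129 and 703 (0.68, 0.54 to 0.83) and Jun at 1129 and 678 (0.74, 0.59 to 0.89), with Egr1 at 824 and 785 (0.07), from 37 FTOC cells.

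**Figure D5:**
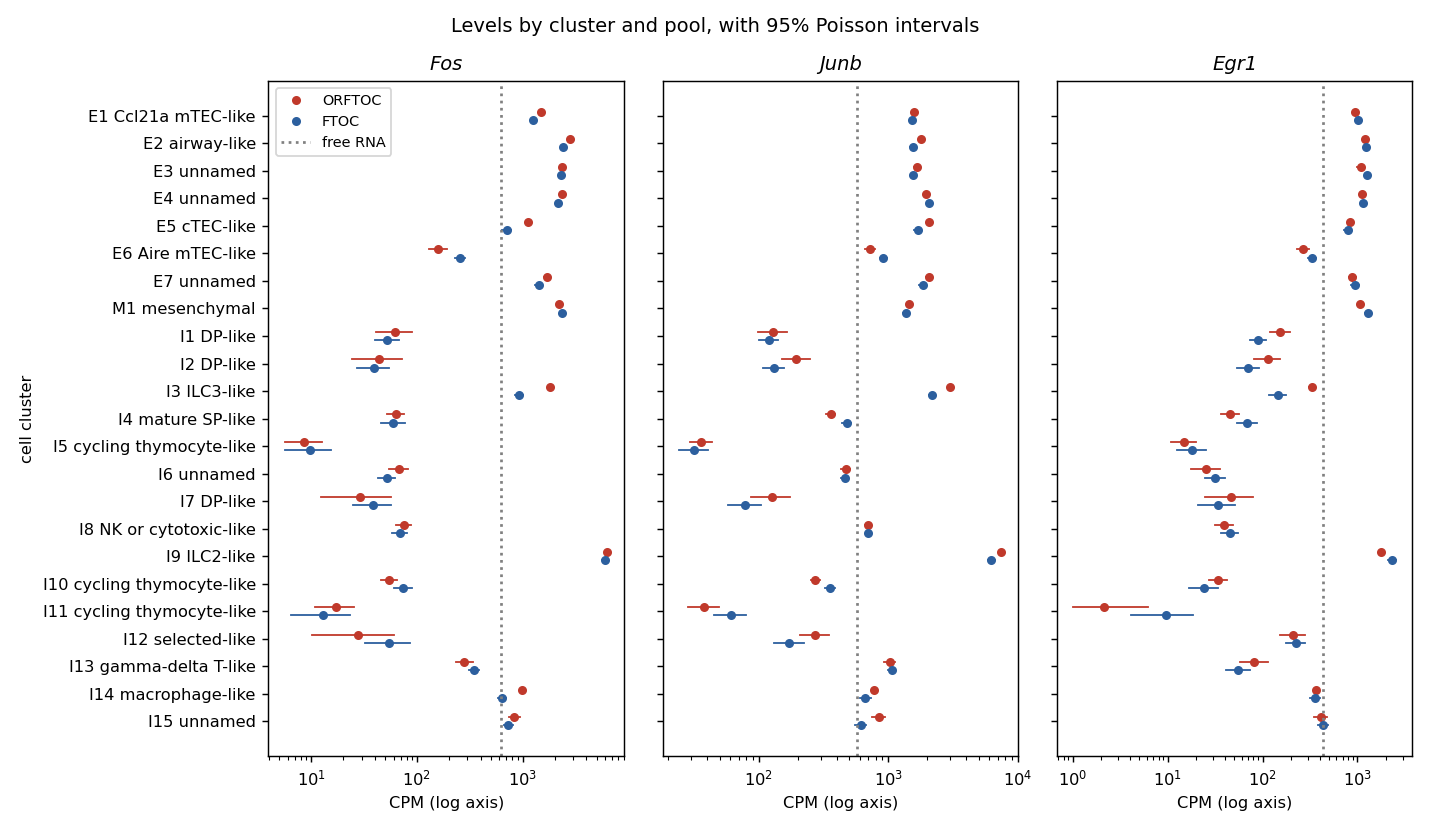
Levels of Fos, Junb and Egr1 in ORFTOC (red) and FTOC (blue) cells of 23 clusters, in CPM on log axes with 95% Poisson intervals (ends under 1 are drawn at 1); the dotted line is the level in free RNA. Points of the same cluster lie close together next to the distance between clusters, and the ILC3-like cluster (Fos 1827 and 921) is the widest pair above the line for Fos.

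Companion genes of the same responses were read from lists. Of the 8 listed AP-1 subunits and partners, 3 epithelial, 4 immune and 4 mesenchymal genes had enough UMIs, and 1 passed 2-fold. This was Jdp2, an AP-1 repressor, at 54.7 in ORFTOC and 22.8 in FTOC mesenchymal cells (log2 ratio 1.26, 0.63 to 1.96). Over all genes 4.66%, 4.14% and 4.58% passed in the 3 compartments. Of 27 other immediate-early genes, 5 of the 24 with enough UMIs were higher in ORFTOC in immune cells, where 2.98% of all genes were, with a median log2 ratio of 0.51 against -0.06 over all genes. They were Klf4 (1.70), Nr4a3 (1.58), Gadd45b (1.29), Rhob (1.26) and Nr4a1 (180 and 87.6, 1.04), among them the nuclear receptors that antigen receptor signals induce. Within immune clusters the calls went both ways. Of the listed genes 3 of 21 were higher and 1 lower in the ILC3-like cluster, where 3.46% of all genes were called. In the ILC2-like cluster it was 1 and 1 of 23 (12.3%). Macrophage-like cells had 0 and 2 of 24 (7.47%) and selected-like cells 0 and 3 of 19 (12.8%). The medians there were 0.34, -0.06, -0.21 and -0.24. In epithelial cells 3 of 23 were higher, where 3.13% of all genes were: Ccn2 (1.69), Ccn1 (257 and 106, 1.27) and Gadd45b (1.03), of which the first pair are secreted matrix proteins and targets of the YAP pathway. In mesenchymal cells Ccn2 was higher (1.55) and the phosphatase genes Dusp2 (-2.57, from 16 and 20 UMIs) and Dusp6 (-1.23) were lower, 3 of 26 where 4.58% of all genes passed. Of 16 other heat shock genes, 0 of 15, 11 and 15 passed 2-fold in epithelial, immune and mesenchymal cells, with medians of 0.02, 0.13 and 0.02. Over all genes 4.66%, 4.14% and 4.58% passed, so counts of 0 among so few genes say little.

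Across 47 points, each a population in 1 pool, the levels (log2 of CPM plus 10) of Fos went with those of Fosb (r = 0.96), Jun (0.95), Junb (0.91) and Egr1 (0.91), and less closely with Hspa1b (0.67). Dusp1 and Hspa1b had r = 0.31. The points share a lane and its free RNA, and many share a cell class, so these values only describe the pattern. Outside the 9 genes and among 8869, the profiles most like the mean of the 7 AP-1 and early genes were those of Ier2 (r = 0.95), Nfkbiz (0.95), Klf4 (0.94), Gnaq (0.93) and Zfp36l1 (0.93), of which all but Gnaq were on the companion lists. Those most like Hspa1a plus Hspa1b were Arhgef12 (0.97), Ckap4, Yap1, Rbms3 and Cttn (each 0.96), none of them on a heat shock list.

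Within populations, depth moved with the level of most of the genes. Cells were split by their UMI count into 3 groups of equal size in 16 populations of at least 150 cells. The Fos level was higher in the shallowest than in the deepest group in 13 of the 16, and Jun, Junb, Egr1 and Dusp1 were so in 14. Fosb was so in 11, whereas Atf3 was higher in the shallowest group in 7 and in the deepest in 8, and Hspa1b in 7 and 5. In the ILC2-like cluster Fos stood at 7672, 6348 and 5530 from the shallowest to the deepest group, and in mesenchymal cells at 2919, 2558 and 1761. Median depth was 5732 UMIs per cell in the ILC2-like cluster and 18815 in mesenchymal cells, so the groups of these populations are not matched in depth. The split by mitochondrial share divided the populations 8 to 8 for Fos, with 5911, 6625 and 6222 from the lowest to the highest group of the ILC2-like cluster and 1811, 2388 and 2615 in mesenchymal cells. Fosb was higher in the lowest group in 4 populations and in the highest in 12, Jun in 6 and 10, and Junb in 11 and 5. The part of depth or of mitochondrial share in these levels was not tested.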

How the data were processed

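Gene expression, T-cell receptor and hashtag libraries were made with a 10x 5′ kit (v2). The values used were UMI counts per gene and barcode, deposited unfiltered and not normalised by the authors. The submitters' processing notes name Cell Ranger 6.1.2, Seurat 4.2.0 and mm10, while the header of the matrix names Cell Ranger 4. Whether the counts depend on this version was not tested. The receptor contigs were not used here.

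Cells with at least 600 genes and 0.4 to 10% mitochondrial UMIs were kept (10245 of 705161 barcodes). HTODemux left 8983 single cells, and 591 likely doublets within pools were removed by a neighbour rule, leaving 8392. Clustering used SCTransform with cell cycle scores regressed out, 18 principal components and resolutions of 0.4 (epithelial) and 1 (immune), without the 9 genes or their companions among the features. Counts were summed over cells and scaled to CPM (UMIs per 1000000). Intervals are exact Poisson for levels, Clopper-Pearson for shares and conditional binomial for ratios, in which a count under 3 was set to 3, and no ratio was given where neither pool was above 3. Called means at least 2-fold, for genes that reached 20 CPM in either pool.

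All 9 genes are named; a companion gene is named where it was called in a compartment. The likeness rule named the 5 genes with the highest correlation. The members, the lists and the rules were chosen with earlier results of these data known, and the limits for naming clusters were set after their leading genes had been seen. No p-value is given, since each pool was 1 sample. The ratio step was run on simulated Poisson counts with known folds. These hold no variation between cells or cultures, so only the calculation was checked. The software was Seurat 5.3.0 with sctransform 0.4.2 (R 4.3.3), and scipy 1.17.1, numpy 2.4.6 and pandas 2.3.3 (Python 3.11.15). Alternatives to these choices are given in the closing section.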

Additional observations from a re-analysis of the deposited data

Results flagged for a closer look

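In some genes the pools differed in opposite directions between compartments, each with an interval for counting error clear of 0. None of these differences between compartments was tested, since each pool was 1 sample. The epithelial and immune values are sums over clusters whose shares differed between the pools, so they need not be changes within a cell type. The immune ratios of Fosb and Egr1 turned below 0 with clusters weighted alike, as given in the next section. The log2 ratio of ORFTOC over FTOC for Fos was 0.10 in epithelial and 1.93 in immune cells but -0.11 in mesenchymal cells, and for Fosb it was 0.49 and 1.77 against -0.34. Dusp1 was at -0.44 in epithelial cells, where immune cells had 1.51 and mesenchymal cells 0.38. Atf3 was at -0.08 in epithelial and 0.92 in immune cells. Egr1 was at -0.11 in epithelial and -0.27 in mesenchymal cells against 1.24 in immune cells. Hspa1b was at 0.40 in epithelial cells, -0.88 in mesenchymal and -1.67 in immune cells, the last from 17 and 41 UMIs. Without cluster I15 Hspa1b was at 0.10 in immune cells.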

How the results depend on the processing

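No paired analysis was possible because each pool was 1 sample, and leaving out a replicate was impossible for the same reason. The count of 8 genes past 4-fold over the median cluster and the count of 0 past 2-fold in epithelial cells were the same under every alternative run. In mesenchymal cells the count was 0, and 1 with at least 1000 genes per cell, where Hspa1b had a log2 ratio of -1.07. In immune cells the count of 6 ranged from 5 to 7 except under the 3 alternatives named next, and was 7 without clusters E7 and I15, where Atf3 was at 1.12. It was 0 with clusters weighted alike in both pools, where Fosb (-0.078), Egr1 (-0.054) and Jun (-0.0099) turned below 0. The alternatives that leave out clusters were added after the data had been seen. The count was 1 without the ILC3-like and ILC2-like clusters, where Jun was at -0.21, and 0 without the macrophage-like cluster as well, where Fos (-0.40), Fosb (-0.31), Jun (-0.62), Junb (-0.22), Dusp1 (-0.28) and Egr1 (-0.44) turned below 0. By construction these alternatives remove or equalise clusters of unequal share in the pools, and the share of all genes passing under them was not computed. Of 306 log2 ratios under alternatives, 221 stayed within the counting interval, 75 moved outside it and 10 changed sign from a called value. The immune ratios moved both ways: over all settings that of Fos ranged from -0.40 to 2.58, of Dusp1 from -0.28 to 2.18 and of Junb from -0.22 to 1.86. When the 9 genes and companions entered the clustering, 246 of the 287 ILC2-like cells stayed together. Mesenchymal cells formed 1 cluster, so weighting clusters alike gave no value there. Immune cells held 36 Hspa1a and 58 Hspa1b UMIs, so their ratios there are imprecise, and 22 FTOC cells limit the ILC2-like comparison.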
